A study of Mus musculus with 24 samples.

Results

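A set of 10 genes that encode heat shock and endoplasmic reticulum (ER) chaperones, or that control them, were followed through peritoneal cells, hearts and lungs of mice given β-nicotinamide mononucleotide (β-NMN, a precursor of NAD+) or vehicle during peritonitis. They were Hspa1a, Hspa1b, Hspa8, Hsph1, Dnajb1, Hsp90aa1, Hspa5, Hsp90b1, Dnajb9 and Xbp1. The genes were found by symbol in both count tables, 10 of 54658 rows, and all 10 passed the filter on low counts in each tissue. In peritoneal cells Hspa1a and Hspa1b were 2.22-fold and 2.18-fold higher after β-NMN while the co-chaperones Dnajb1 and Dnajb9 were lower in every β-NMN library than in every vehicle library. There 51.6% of all genes passed the test, and the groups did not overlap for 26.6%. Within the groups, libraries with more Hspa1b held less Dnajb9, the most negative of 45 pairs of members. This relation was weaker without 3 of the 12 libraries and had the opposite sign in heart. In heart and lung 0 members passed the test for β-NMN, as did 0 of all genes. Between the organs of a mouse, Hsp90aa1 was higher in the lung and Hspa8 and Hspa5 were higher in the heart, in a comparison that 63.9% of all genes passed.

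The animals were male C57BL/6 mice, 7 to 12 weeks old. They were injected intraperitoneally with saline (vehicle) or with β-NMN at 185 mg per kg, first at the induction of peritonitis and last 24 h before sacrifice. For the peritoneal cells, mice received 1 mL of thioglycollate (TGC), a sterile irritant, and daily injections for several days, and the lavaged cells were plated and stimulated with E. coli for 6 h, with 6 vehicle and 6 β-NMN libraries. For the organs, heart and lung were taken from the same 3 vehicle and 3 β-NMN mice after cecal ligation and puncture (CLP), a surgical model of sepsis. The organs were taken 24 h after surgery, so these mice had a single dose, and dosing differs between the peritoneal and the organ libraries. Every library therefore came from a mouse with peritonitis and every peritoneal library from stimulated cells, and neither unstimulated cells nor unoperated mice were analysed here.

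Cytosolic Hsp70 and Hsp90 proteins hold and refold client proteins. J-domain proteins such as Dnajb1 deliver clients to Hsp70, nucleotide exchange factors such as Hsph1 reset it, and the transcription factor Hsf1 switches on the inducible members when unfolded protein builds up. In the ER the same work falls to Hspa5 (BiP) and Hsp90b1 (Grp94), whose genes are driven by the unfolded protein response through Atf6, Ire1-Xbp1 and Perk-Atf4, while Dnajb9 (ERdj4) is a BiP co-chaperone that helps to hold Ire1 inactive. Macrophages that meet bacteria engage the Ire1-Xbp1 branch and make much secretory protein, so both sets are commonly followed in sepsis.

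The promoter letters show which members carry the recognition motif of each programme next to their start. The 250 bases before each start in RefSeq's GRCm38.p6 table were searched on both strands, and 8 of the 10 members were in that table. Hspa8 and Hsp90aa1 were not. The heat shock element with 2 units, written GAANNTTC or TTCNNGAA, was in the windows of Hspa1a, Hspa1b and Hsph1 and in 12.8% of all 32851 promoters. The form with 3 units, in which GAA, TTC and GAA (or TTC, GAA and TTC) follow each other with any 2 bases between them, contains the shorter form and was in 0.466% of promoters and in 0 of the 8 members. The ER stress response element, CCAAT and CCACG with any 9 bases between them, was in Hspa5 and Hsp90b1 and in 0.113% of promoters. ER stress response element II (ATTGG and CCACG with any 1 base between them, in 0.0304% of promoters) and the UPR element (TGACGTGG, in 0.563%) were in 0 of the 8. These are matches of letters only. Below, capitals mark the heat shock element of Hspa1a and Hspa1b and the ER stress response elements of Hspa5 and Hsp90b1, shown as members that hold a searched element. In peritoneal cells Hspa1a, Hspa1b and Hsp90b1 passed the test described below and Hspa5 did not. Hspa1a is shown on chr17:34972157-34972276 (minus strand), Hspa1b on chr17:34959239-34959358 (minus strand), Hspa5 on chr2:34772020-34772049 (plus strand, 30 bases) and Hsp90b1 on chr10:86705520-86705669 (minus strand), each 5′ to 3′ on the gene's own strand.
Hspa1a: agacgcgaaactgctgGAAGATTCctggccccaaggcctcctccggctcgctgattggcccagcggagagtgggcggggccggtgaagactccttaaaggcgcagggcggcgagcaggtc
Hspa1b: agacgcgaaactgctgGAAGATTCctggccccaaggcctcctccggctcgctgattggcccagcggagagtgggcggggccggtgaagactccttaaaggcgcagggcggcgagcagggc
Hspa5: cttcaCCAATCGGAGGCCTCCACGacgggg
Hsp90b1: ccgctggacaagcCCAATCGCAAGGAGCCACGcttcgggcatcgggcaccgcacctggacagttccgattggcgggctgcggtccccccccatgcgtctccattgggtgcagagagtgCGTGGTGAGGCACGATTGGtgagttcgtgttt

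The Hspa1a and Hspa1b promoters were identical at 247 of 250 bases, and in both the element ran from 104 to 97 bases before the start. In Hspa5 the element ran from 65 to 47 bases before RefSeq's start. The Hspa5 stretch shown lies inside the GENCODE gene model given below, which starts farther upstream. Hsp90b1 held 2 copies, from 212 to 194 bases before the start and, on the opposite strand, from 107 to 89 bases before it.

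The members lie, in GRCm38 with GENCODE M21 gene models, at chr17:34969190-34972156 (Hspa1a, minus strand), chr17:34956436-34959238 (Hspa1b, minus), chr9:40800984-40810087 (Hspa8, plus), chr5:149614287-149636376 (Hsph1, minus), chr8:83608193-83612653 (Dnajb1, plus), chr12:110690605-110702728 (Hsp90aa1, minus), chr2:34771970-34777547 (Hspa5, plus), chr10:86690209-86705509 (Hsp90b1, minus), chr12:44205559-44210326 (Dnajb9, minus) and chr11:5520659-5525893 (Xbp1, plus). Hspa1a and Hspa1b have a single exon each, and their transcripts were identical at 90.7% of 2771 aligned bases. Of the windows of 150 bases, the read length, that can be cut from the Hspa1a transcript, 39.7% also occurred in another gene (Hspa1b or Hspa1l), against 40.5% for Hspa1b. The share was 21.9% for Hspa8 and 36.2% for Hsp90aa1, whose copies are pseudogene models, and 0 for the other 6 members. The sources used here name both single and paired reads, and with pairs a window of 1 read overstates the share that cannot be assigned. The sources used here do not say how reads that fit several genes were counted, and the split between Hspa1a and Hspa1b is therefore uncertain. Gene counts do not separate the spliced from the unspliced Xbp1 messenger RNA.

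Library totals ran from 31126823 to 112456050 counts in peritoneal cells, from 27319513 to 68523239 in heart and from 8915366 to 28356786 in lung, the lowest being the lung of vehicle mouse 2. The peritoneal totals fell into 2 sets. The deeper libraries (3 vehicle and 2 β-NMN) held 90571560 to 112456050 counts, and the shallower ones (3 vehicle and 4 β-NMN) held 31126823 to 53319385. The labelled tissues carried their own markers. Summed macrophage markers held 5707 to 8661 CPM (counts scaled to the library's total) in vehicle and 10642 to 12233 in β-NMN peritoneal libraries, summed cardiomyocyte markers 33732 to 56240 CPM in heart against 72.9 to 415 in lung, and summed alveolar markers 26404 to 47992 CPM in lung. The heart of vehicle mouse 2 stood apart in atrial genes, with 2111 CPM of Myl7, 804 of Sln and 4009 of Nppa against at most 192, 121 and 619 in the other hearts (genes chosen after their values were seen). The peritoneal libraries also differed in other cell types. The neutrophil marker sum was 495 to 1007 CPM in vehicle and 335 to 468 in β-NMN libraries, the dendritic cell sum 169.8 to 208 against 36.9 to 50.3 and the fibroblast sum 111 to 1173 against 22.9 to 99.96. The sum of the plasma cell list was 419 to 490.4 CPM against 331 to 364. In that list Tnfrsf17 and Derl3 did not pass the filter on low counts, so the sum rests on its other genes. The T cell sum was 35.3 to 72.9 CPM against 42.3 to 60.6 and the B cell sum 37.6 to 190.03 against 26.1 to 92.6. Of the markers tested, 4 of 6 for dendritic cells and 5 of 5 for fibroblasts were lower after β-NMN, and 3 of 8 for macrophages higher. Of 8 neutrophil markers 6 were lower and 1 higher, with a median log2 fold change of −3.79. Lower too were 2 of 5 for plasma cells, 5 of 6 for T cells (the other one higher) and 4 of 6 for B cells. In these lists 0 markers were at 0 in all peritoneal libraries, and the part of these cell types in the members' changes was not tested. In libraries of mixed cells, fewer cells of a type and less RNA per cell cannot be told apart.

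In peritoneal cells 6 of the 10 members passed the test, 3 higher and 3 lower after β-NMN (edgeR's quasi-likelihood test, adjusted p below 0.05 over 14985 genes). Of all genes tested 51.6% passed, 23.7% higher and 27.9% lower, so the share of members is near the background. The members' median log2 fold change was 0.07 against −0.02 for all genes. Values below are CPM per library, scaled for library composition, and log2 fold changes are β-NMN over vehicle with their standard error (SE). Each peritoneal title carries a code that no other library has, and the labels do not say what the codes mean, so p-values measure the spread between these libraries.

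**Figure D1:**
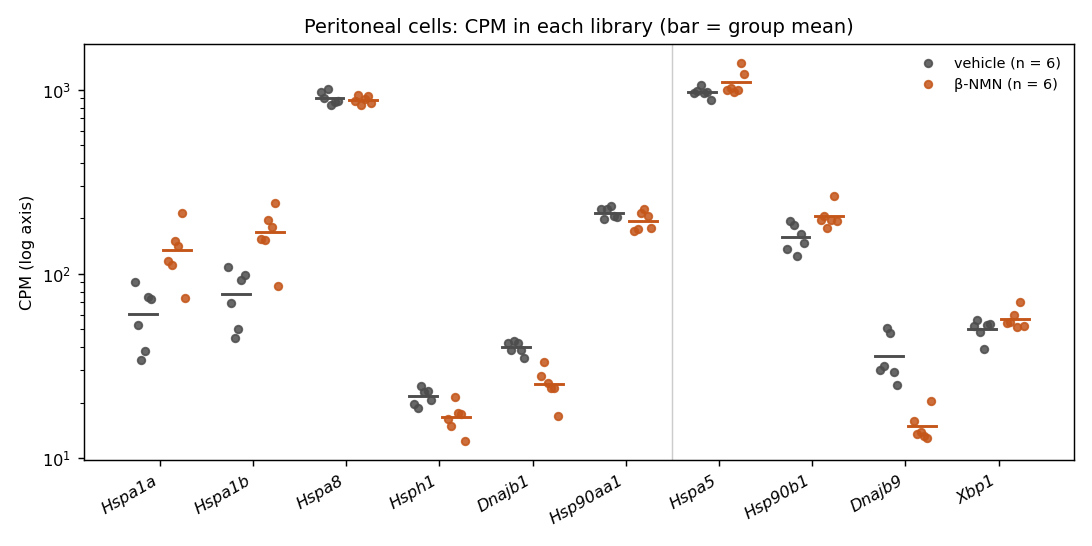
CPM of the 10 members (x axis) in each of the 6 vehicle and 6 β-NMN peritoneal libraries (points, log axis), with the group mean as a bar. Hspa1a and Hspa1b sat higher in β-NMN libraries with a single one of them inside the vehicle range, and the Dnajb1 and Dnajb9 points of the groups did not overlap.

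Hspa1a and Hspa1b encode the stress-inducible Hsp70. Hspa1a ran from 34.1 to 90.5 CPM in vehicle libraries (median 63.2) and from 73.8 to 214 in β-NMN libraries (median 129.5). Hspa1b ran from 45.1 to 109 CPM (median 80.9) and from 86.5 to 244 (median 167). For each gene 5 of 6 β-NMN libraries lay above all vehicle libraries, and β-NMN library 6 lay inside the vehicle range. The log2 fold change was 1.15 (SE 0.26, edgeR adjusted p = 0.00194) for Hspa1a and 1.12 (SE 0.25, edgeR adjusted p = 0.00154) for Hspa1b. Two-sided exact permutation tests over the 12 libraries gave p = 0.00649 and p = 0.00866. Hspa1a took 42.6 to 45.4% of the reads of the pair in vehicle and 42.5 to 46.7% in β-NMN libraries, and both calls held in all 22 alternative fits.

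The other cytosolic members did not rise with them. Hspa8, the constitutive Hsp70 (Hsc70), ran from 825 to 1009 CPM in vehicle (median 886) and from 828 to 938 in β-NMN libraries (median 882). The ranges coincided, with a log2 fold change of −0.04 (SE 0.08, edgeR adjusted p = 0.729), although Hspa8 had 0.16 in the deeper libraries alone. Hsp90aa1, the inducible cytosolic Hsp90, ran from 199 to 234 CPM (median 215) and from 171 to 224 (median 192). These ranges overlapped and the gene did not pass (log2 fold change −0.15, SE 0.09, edgeR adjusted p = 0.183).

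Dnajb1 (Hsp40), the J-domain partner of inducible Hsp70, was lower. It ran from 34.7 to 43.5 CPM in vehicle (median 40.3) and from 16.8 to 33.4 in β-NMN libraries (median 24.9). The groups did not overlap, as was so for 26.6% of all genes, 14.0% with β-NMN lower. The log2 fold change was −0.65 (SE 0.13, edgeR adjusted p = 0.000682), and the exact permutation p was 0.00216, the smallest that 6 against 6 allows. With the deeper libraries alone it was −0.26 and did not pass (edgeR adjusted p = 0.204).

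Hsph1 (Hsp110), a nucleotide exchange factor of Hsp70, ran from 18.8 to 24.6 CPM in vehicle (median 21.8) and from 12.3 to 21.5 in β-NMN libraries (median 16.8). Of the β-NMN libraries 5 of 6 lay below all vehicle libraries. The log2 fold change was −0.38 (SE 0.12, edgeR adjusted p = 0.017, exact permutation p = 0.013). This was the least steady call, kept in 17 of 23 alternative fits. Hsph1 missed the threshold without vehicle library 3 (edgeR adjusted p = 0.0661), without vehicle library 4 (0.0579), without β-NMN library 1 (0.0506), with no filter on low counts (0.0705) and in the shallower libraries alone (0.349).

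The ER members went in both directions. Hspa5 (BiP), the ER Hsp70, ran from 881 to 1066 CPM in vehicle (median 964) and from 975 to 1398 in β-NMN libraries (median 1013). The ranges overlapped, β-NMN libraries 5 and 6 being the highest at 1398 and 1215 CPM, and Hspa5 did not pass (log2 fold change 0.19, SE 0.10, edgeR adjusted p = 0.138). Hsp90b1 (Grp94), the ER Hsp90, ran from 124.8 to 193 CPM (median 156) and from 177 to 265 (median 197). Of its β-NMN libraries 5 of 6 lay above all vehicle libraries. The log2 fold change was 0.38, or 1.30-fold (SE 0.12, edgeR adjusted p = 0.0173, exact permutation p = 0.013), and 0.31 in the shallower libraries alone, where it did not pass (edgeR adjusted p = 0.207).

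Dnajb9, the BiP co-chaperone, had the smallest p of the members. It ran from 24.9 to 50.9 CPM in vehicle (median 30.9) and from 12.9 to 20.4 in β-NMN libraries (median 13.7). The groups did not overlap, and Dnajb9 was 2.40-fold lower (log2 fold change −1.26, SE 0.18, edgeR adjusted p = 4.61e-05, exact permutation p = 0.00216). All 23 alternative fits called it, with log2 fold changes from −1.35 to −1.02. Xbp1, the transcription factor that Ire1 activates, ran from 39.3 to 56.2 CPM (median 52.5) and from 51.2 to 70.6 (median 54.2). Its ranges overlapped and it did not pass (log2 fold change 0.18, SE 0.10, edgeR adjusted p = 0.16).

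Divided by the summed length of a gene's exons, levels spanned a wide range. In vehicle peritoneal libraries the median was 228 CPM per kilobase for Hspa5 and 206 for Hspa8, whose ranges overlapped. Wholly below both came Hsp90aa1 at 54.7, Hsp90b1 at 38.8, Hspa1b at 28.9, Hspa1a at 21.3, Xbp1 at 16.2, Dnajb1 at 12.6 and Dnajb9 at 12.1 CPM per kilobase. Each of these overlapped its next neighbour, except that Hsp90aa1 lay wholly above Hsp90b1 and Dnajb9 wholly above Hsph1, the lowest at 2.997. In β-NMN libraries Hspa5 (239.6 CPM per kilobase) lay wholly above Hspa8 (205). Hspa1b moved from rank 5 to rank 3 at 59.6, overlapping Hsp90b1 (48.9) and Hsp90aa1 (48.8), although with the longest transcript as the length Hsp90b1 stood above it (61.1). Dnajb1 stood at 7.76, Dnajb9 at 5.37 and Hsph1 at 2.32. With the longest transcript as the length, Hspa8 led Hspa5 in both groups.

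Within each peritoneal group the members did not all move together. Over the 45 pairs of members, the Pearson r of log2 CPM over 12 libraries, with group means removed, had a median of 0.06, with 29 pairs above 0 and 16 below. Libraries share their totals and their mix of cells, so these values are a description. Hspa1a and Hspa1b had r = 0.99, but they share part of their reads. The most negative pair was Hspa1b with Dnajb9 at r = −0.91 (Spearman rho −0.84), which lay between −0.92 and −0.88 with any library left out and was −0.93 in the 6 vehicle and −0.92 in the 6 β-NMN libraries. Without the 2 libraries farthest from the median Hspa1b it was −0.90 over 10 libraries. In heart the pair had r = 0.51 (0.34 to 0.78 with any library left out) and in lung −0.84 (−0.96 to −0.68), each over 6 libraries.

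Vehicle 3, vehicle 4 and β-NMN 6 lay at the ends of this pair in their groups, and without them (chosen after their values were seen) r was −0.57 (rho −0.48) over 9 libraries. Vehicle 3 and 4 had the lowest Hspa1b of their group, 45.1 and 50.2 CPM, and the highest Dnajb9, 50.9 and 47.9 CPM. β-NMN 6 had the lowest Hspa1b of its group, 86.5 CPM, and the highest Dnajb9, 20.4 CPM. The fibroblast marker sum was 1173 CPM in vehicle 3 and 498.5 in vehicle 4, the highest of the 12 libraries, but 66.9 in β-NMN 6, within its group's range. β-NMN 6 stood apart from its group in other sums, with 259.6 CPM of endothelial markers against 152.6 to 158.2, 4606 CPM of the Perk-Atf4 genes listed below against 3106 to 3529.7 and 5728 CPM of immediate early genes against 3007 to 4025. The summed mitochondrial chaperones were highest of each group in these 3 libraries, at 615 and 628 CPM in vehicle 3 and 4 (391 to 427 in the other vehicle libraries) and 559.7 in β-NMN 6 (412 to 502 in the others). The part of any of these in the pair was not tested. Without these 3 libraries Hspa1a, Hspa1b, Hsp90b1, Dnajb1 and Dnajb9 were still called and Hsph1 was not (log2 fold change −0.19, edgeR adjusted p = 0.17).

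**Figure D2:**
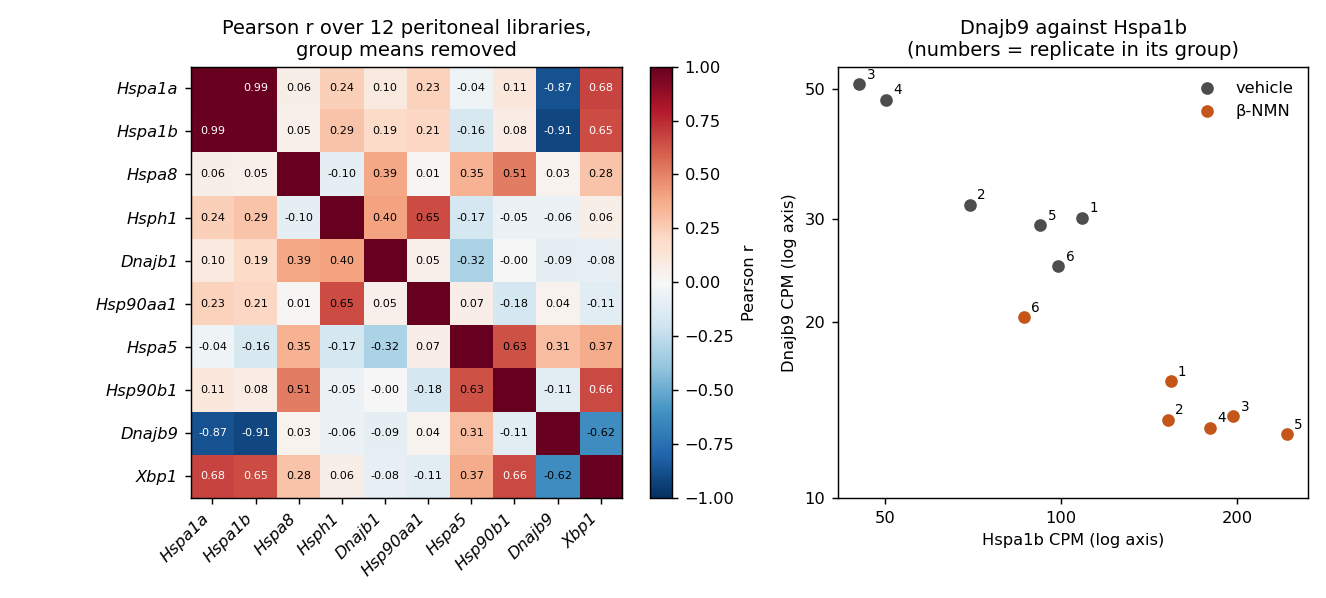
Left, Pearson r of log2 CPM between members over 12 peritoneal libraries with group means removed (color). Right, Dnajb9 against Hspa1b CPM in each library (log axes, points numbered by replicate), falling from upper left to lower right within both groups.

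Hspa1a with Dnajb9 followed at r = −0.87 (−0.90 to −0.83 with any library left out). Among the weaker pairs Hspa1a with Xbp1 had r = 0.68 and Hspa1b with Xbp1 had 0.65. Hspa5 with Hsp90b1 had r = 0.63 (0.36 to 0.72 with any library left out), Hsph1 with Hsp90aa1 had 0.65 (0.59 to 0.72), Hsp90b1 with Xbp1 had 0.66 and Dnajb9 with Xbp1 had −0.62. These pairs fell both within and across the cytosolic and the ER members. Among the 6971 genes whose average log2 CPM reached 3, those most like Hspa1a outside the member list were H2-T10 (r = 0.95), Lsp1 (0.94), Ulbp1 (0.93) and Klra2 (0.92). Their log2 fold changes were −0.74, −0.15, 0.51 and −1.76, beside 1.15 for Hspa1a, so they did not share its β-NMN difference. Those most like Hspa5 were Mmp8 (0.95), F11r (0.94), Mis12 (0.93) and Zfp410 (0.91), with log2 fold changes of 0.12, −0.82, −0.40 and −0.28 beside 0.19. Both sets are the highest of 6971 genes over 12 libraries, so their high r is in part a product of the choice.

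The rest of the chaperone network was described by lists, as counts beside the background of 51.6%. Of 15 other cytosolic heat shock chaperones 1 was higher and 7 lower (median log2 fold change −0.35). Hspb1, a small heat shock protein, rose (0.72, edgeR adjusted p = 0.00303). Dnajb4 (−0.78) and Dnajb2 (−0.89), J-domain proteins like Dnajb1, fell, as did the small heat shock protein Cryab (−2.31). The co-chaperones of Hsp70 and Hsp90 leaned the other way, with 9 of 17 higher and 1 lower (median 0.24). They included the Hsp90 activator Ahsa1 (0.60), the Hsp70 exchange factor Bag1 (0.58) and Cacybp (0.77), while Unc45a fell (−0.37).

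Of 8 subunits of the CCT chaperonin, which folds actin and tubulin, 2 were higher and 0 lower (Tcp1 at 0.32 and Cct4 at 0.28, list median 0.06). Of 4 heat shock factor genes 2 were higher and 0 lower, namely Hsf1 (0.40) and the Hsf1-binding protein gene Hsbp1 (0.49). Among 11 mitochondrial chaperones and proteases 5 were higher and 2 lower (median 0.23), led by the mitochondrial Hsp90 Trap1 (0.94), the J-domain protein Dnaja3 (0.73) and the protease Htra2 (0.80), with Lonp1 (−0.49) and Hspd1 (−0.26) lower. The Hspd1 call was lost in 14 alternative fits. In the shallower libraries alone, which are fewer, the counts higher and lower were 0 and 3 for the other cytosolic chaperones, 5 and 0 for the co-chaperones, 0 and 0 for the CCT subunits, 1 and 0 for the heat shock factor genes and 4 and 0 for the mitochondrial list, where 27.9% of all 15198 genes passed.

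The ER lists also went both ways. Of 22 other ER folding factors 12 were higher and 4 lower (median log2 fold change 0.29). Uggt1, the glycoprotein folding sensor, rose by 0.50, Fkbp2 by 0.63 and the BiP co-chaperone Dnajb11 by 0.33. The reductase Dnajc10 (−0.76) and Hspa13 (−0.55) fell. The collagen chaperone Serpinh1 fell from 32.9 ± 24.0 to 5.58 ± 2.92 CPM (SD, n = 6 per group), beside the fibroblast marker sums above, whose part in it was not tested. In the shallower libraries alone 1 factor of this list was higher and 3 lower, against 10 and 3 in the deeper ones, where 27.9% and 30.5% of all genes passed.

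Of 9 ER stress sensors and their transcription factors 1 was higher and 3 lower (median 0.00), with the Atf6 protease Mbtps2 higher (0.88) and Creb3l2 (−0.69), the Perk gene Eif2ak3 (−0.52) and Atf6b (−0.24) lower. Of 15 genes of ER-associated degradation 6 were higher and 5 lower (median 0.02), including Os9 (0.43), Derl2 (0.35) and Erlec1 (0.43) on the higher side. Herpud1, which scaffolds the degradation complex, fell from 54.6 ± 17.01 to 11.7 ± 1.72 CPM (SD, n = 6 per group, log2 fold change −2.22, edgeR adjusted p = 2.28e-07). Ube2j1 (−0.49) and Vcp (−0.29) fell less. Of 20 translocon and secretory genes known to depend on Xbp1, 8 were higher and 2 lower (median 0.13), with the signal peptidase subunits Sec11c (0.83), Spcs2 (0.40) and Spcs1 (0.40) higher and Kdelr3 (−2.20) and Ssr2 (−0.21) lower. Kdelr3 was scarce, at 0.71 ± 0.72 CPM in vehicle and 0.16 ± 0.16 in β-NMN libraries (SD, n = 6 per group). Its log2 fold change ran from −2.84 to −1.57 with 1 library out and was −0.65 without vehicle 3, vehicle 4 and β-NMN 6, where it did not pass. In the shallower libraries alone 2 were higher and 0 lower, and the counts were 2 and 0 for the sensors and 2 and 3 for ER-associated degradation, beside the same 27.9%.

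The Perk-Atf4 arm leaned to the lower side. Of its 10 genes 9 were lower and 1 higher (median log2 fold change −0.82). Cebpb (−1.40), the glutathione-degrading enzyme gene Chac1 (−1.95) and the sestrin gene Sesn2 (−1.39) fell, while Atf3 rose (0.40). Summed over the list, β-NMN library 6 stood above every vehicle library (4606 against 3941 to 4499.7 CPM), and the other β-NMN libraries below them all. Without it 9 were again lower and 1 higher, with a median of −1.08. The shallower libraries alone gave 0 higher and 6 lower (27.9% of all genes passed), and the deeper ones 1 and 7 (30.5%). Immediate early genes, which also answer handling and stimulation of cells, moved with it, with 0 of 11 higher and 9 lower (median −1.59), led by Btg2 (−2.43), Ier2 (−3.71) and Dusp1 (−1.87), and a median of −1.66 without β-NMN library 6. Their part in the members' changes was not tested. Dnajb9 and Herpud1 stood on the lower side of the ER genes beside this arm, and Hsp90b1 on the higher side beside most called folding factors.

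**Figure D3:**
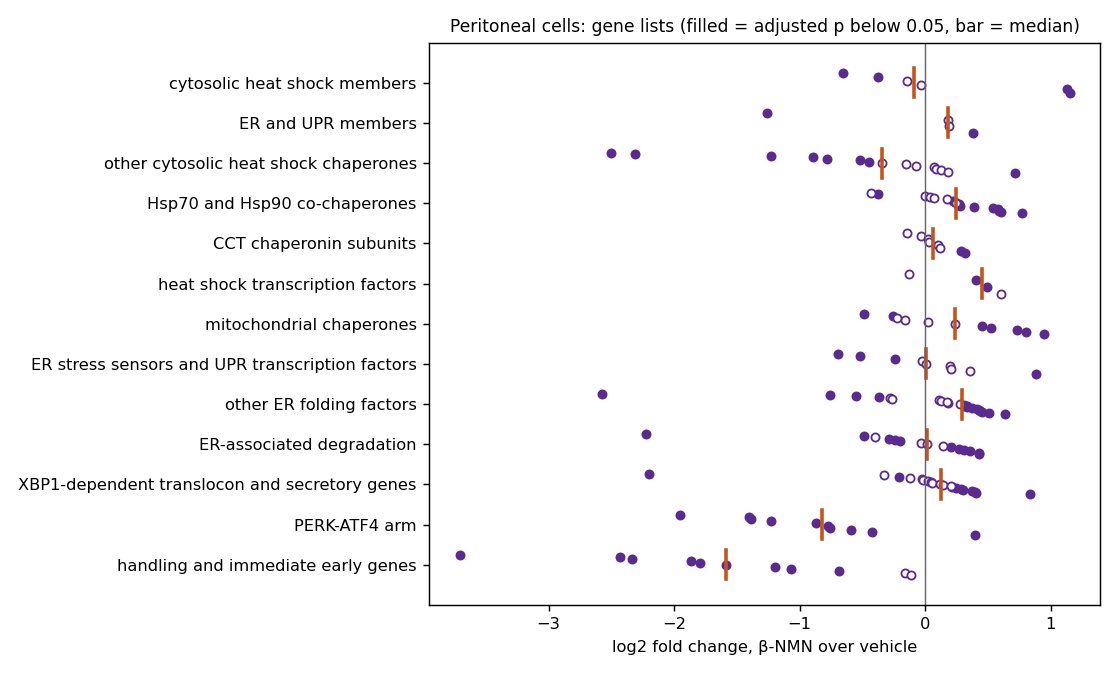
Log2 fold change, β-NMN over vehicle, of each tested gene in peritoneal cells (x axis) by gene list (y axis), filled where the adjusted p was below 0.05 and with the list's median as a bar. The immediate early list lay left of 0 with a median of −1.59, as did 9 of the 10 Perk-Atf4 genes (list median −0.82, Atf3 to the right), and the ER folding factors mostly lay right of it with a median of 0.29.

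In the hearts of CLP mice 0 of 10 members passed edgeR's test, and 0 fell under 0.05 before adjustment. Of 16245 genes tested, 0% passed and 11.3% fell under 0.05 before adjustment, while DESeq2 called 33 genes higher and 236 lower and limma-voom 0 and 3, none of them members. With 3 against 3 the exact permutation test cannot go below 0.1. The median member log2 fold change was −0.10, with 3 members above 0 and 7 below, and their SE ran from 0.14 to 0.34.

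Inducible Hsp70 was low in heart. Hspa1a held 3.95, 4.36 and 7.10 CPM in the 3 vehicle hearts and 4.06, 3.20 and 3.92 in the β-NMN hearts. Hspa1b held 6.53, 5.44 and 12.3 CPM against 4.73, 3.64 and 5.54. Vehicle heart 3 was the highest in both genes, and β-NMN heart 3 overlapped vehicle heart 2 in Hspa1b. The log2 fold change was −0.46 (SE 0.27, edgeR adjusted p = 0.477) for Hspa1a and −0.80 (SE 0.34, edgeR adjusted p = 0.435) for Hspa1b. With 1 heart left out they ran from −0.62 to −0.15 and from −1.02 to −0.36, nearest to 0 without vehicle heart 3.

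Among their cytosolic partners, Hspa8 held 678, 927 and 870.1 CPM in vehicle and 965, 835 and 952 in β-NMN hearts. Hsph1 held 30.8, 24.5 and 41.7 CPM against 43.2, 42.3 and 41.3, and Dnajb1 held 22.2, 28.1 and 25.1 against 24.1, 19.3 and 22.2. Hsp90aa1 held 98.9, 164 and 129 CPM against 124.6, 121 and 111. In all 4 genes the groups overlapped, Hsph1 only through vehicle heart 3, and their log2 fold changes were 0.15 (SE 0.19), 0.39 (SE 0.19), −0.20 (SE 0.14) and −0.14 (SE 0.19).

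In the ER set only Hsp90b1 separated the groups, with 161, 156 and 205 CPM in vehicle and 213, 211 and 213 in β-NMN hearts. This was so for 23.1% of all genes in heart, 11.6% with β-NMN higher. Its log2 fold change was 0.29 (SE 0.14, edgeR adjusted p = 0.454, exact permutation p = 0.1). Hspa5 held 404, 468 and 418 CPM against 351, 415 and 477, and Dnajb9 held 46.3, 48.7 and 49.8 against 44.1, 40.2 and 55.4. Both overlapped, with log2 fold changes of −0.05 (SE 0.17) and −0.05 (SE 0.14). Xbp1 held 92.0, 168 and 92.9 CPM against 87.4, 79.1 and 95.8, the high value being the heart with the atrial genes, and its log2 fold change of −0.43 (SE 0.25) was −0.09 without that heart.

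**Figure D4:**
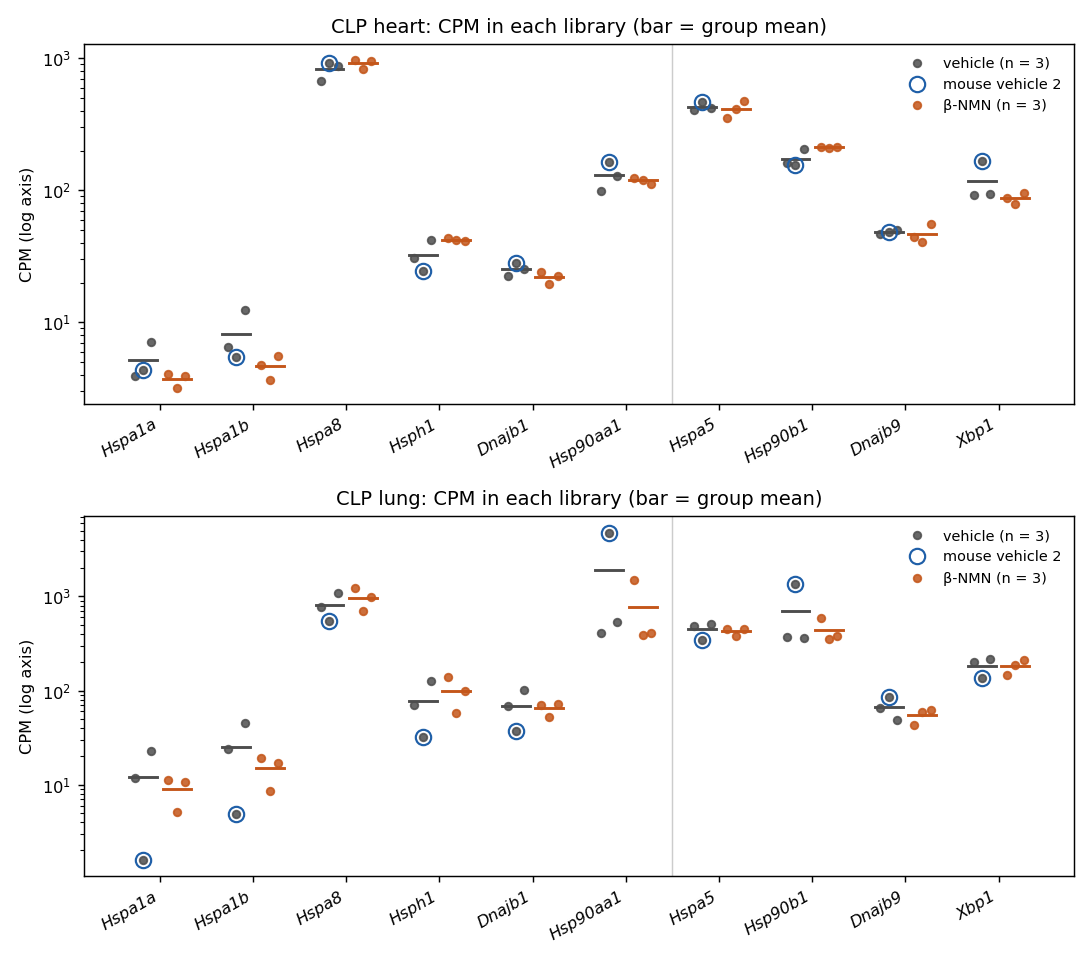
CPM of the 10 members (x axis) in each heart (top) and lung (bottom) of the 3 vehicle and 3 β-NMN mice (points, log axis), with the group mean as a bar and vehicle mouse 2 ringed. In lung this mouse was the lowest in Hspa1a (1.59 CPM) and the highest in Hsp90aa1 (4762 CPM) and Hsp90b1 (1363 CPM).

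The pathway lists in heart had 0 genes called, and of all genes 50.7% had a log2 fold change below 0 (50.3% without vehicle heart 2). Of the 20 Xbp1-dependent translocon and secretory genes 19 had a log2 fold change below 0 and 7 fell under 0.05 before adjustment (median −0.23), and without vehicle heart 2 this was 15 of 20 with a median of −0.10. The 11 mitochondrial chaperones were all above 0 (median 0.25), and 9 of 11 without that heart (median 0.08). Of the Perk-Atf4 arm 9 of 10 were below 0 (median −0.50, and 7 of 10 with −0.17 without vehicle heart 2). All 11 immediate early genes were below 0 (median −1.29), and 9 fell under 0.05 before adjustment, beside 11.3% of all genes. Without vehicle heart 2 it was 10 of 11 below 0 (median −0.74). Markers of other cell types also differed between the hearts, with 0 called. The neutrophil sum was 22.7 to 38.6 CPM in vehicle and 14.7 to 17.2 in β-NMN hearts (8 of 8 markers below 0, 5 under 0.05 before adjustment), the fibroblast sum 1059 to 2181 against 887 to 1298 (6 of 6 below 0) and the cardiomyocyte sum 33732 to 49345 against 51198 to 56240.4 (6 of 7 above 0). In these lists 0 markers were at 0 in all hearts, and their part in the list values was not tested. The genes with the smallest p were Dnajc3 (log2 fold change −0.57) among the folding factors and Cebpb (−0.46) in the Perk-Atf4 arm, and Herpud1 was above 0 (0.58), each with an edgeR adjusted p of 0.435.

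In the lungs 0 of 10 members passed and 0 separated the groups. Of 17008 genes 0% passed, 1.77% fell under 0.05 before adjustment and 8.21% separated the groups, while DESeq2 and limma-voom each called 0 genes higher and 7 lower, none of them members. The smallest edgeR adjusted p of a member was 0.969, and the SE of the members ran from 0.26 to 1.05. The median member log2 fold change was −0.18.

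For Hsp90aa1 and Hsp90b1 the spread came in large part from 1 mouse. Hsp90aa1 held 404, 4762 and 539.9 CPM in vehicle lungs and 1493, 386 and 412 in β-NMN lungs. Hsp90b1 held 366, 1363 and 365 CPM against 585, 357 and 384. In both genes vehicle lung 2 was the highest, and the log2 fold changes of −1.32 (SE 1.05) and −0.66 (SE 0.58) became 0.70 and 0.27 without it. This library also had the fewest counts. Its macrophage marker sum was 1368 CPM against 4006 to 5492 in the other 5 lungs and its endothelial sum 1033 against 1969.8 to 2955. The summed Xbp1-dependent list held 4611 CPM against 1772 to 2232, and the Perk-Atf4 list 1929 against 509 to 719. The part of any of these in the members' values was not tested.

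For inducible Hsp70 the same lung was the lowest. Hspa1a held 11.9, 1.59 and 22.9 CPM in vehicle and 11.3, 5.07 and 10.7 in β-NMN lungs, and Hspa1b held 24.2, 4.91 and 45.6 against 19.3, 8.51 and 16.95. The 2 values of vehicle lung 2 rest on 11 and 34 reads. The β-NMN lungs lay inside the vehicle range, with log2 fold changes of −0.44 (SE 0.80) and −0.75 (SE 0.71), which were 0.39 and 0.02 without vehicle lung 3, the highest.

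The other members also overlapped between the groups in lung. Hspa8 held 768, 541 and 1095 CPM in vehicle and 1224, 706 and 978 in β-NMN lungs, Hsph1 70.6, 32.2 and 127 against 139, 58.1 and 99.0, and Dnajb1 67.8, 37.6 and 101 against 71.0, 52.1 and 72.5. In all 3 vehicle lung 2 was the lowest, and the log2 fold changes were 0.27 (SE 0.37), 0.36 (SE 0.53) and −0.08 (SE 0.37). Hspa5 held 484, 346 and 514 CPM against 449, 382 and 452, Dnajb9 65.5, 85.96 and 48.2 against 42.9, 59.0 and 62.7, and Xbp1 202, 136 and 215 against 146, 185 and 212. Their log2 fold changes were −0.07 (SE 0.26), −0.28 (SE 0.29) and −0.03 (SE 0.28). The pathway lists in lung had 0 genes called. Of 22 ER folding factors 16 were above 0 (median 0.15), as were 50.1% of all genes, and without vehicle lung 2 this was 8 of 22 (median −0.03) beside 53.8% of all genes. Of 10 Perk-Atf4 genes 8 were below 0 with that lung (median −0.18) and without it (median −0.10), beside 49.9% and 46.2% of all genes.

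**Figure D5:**
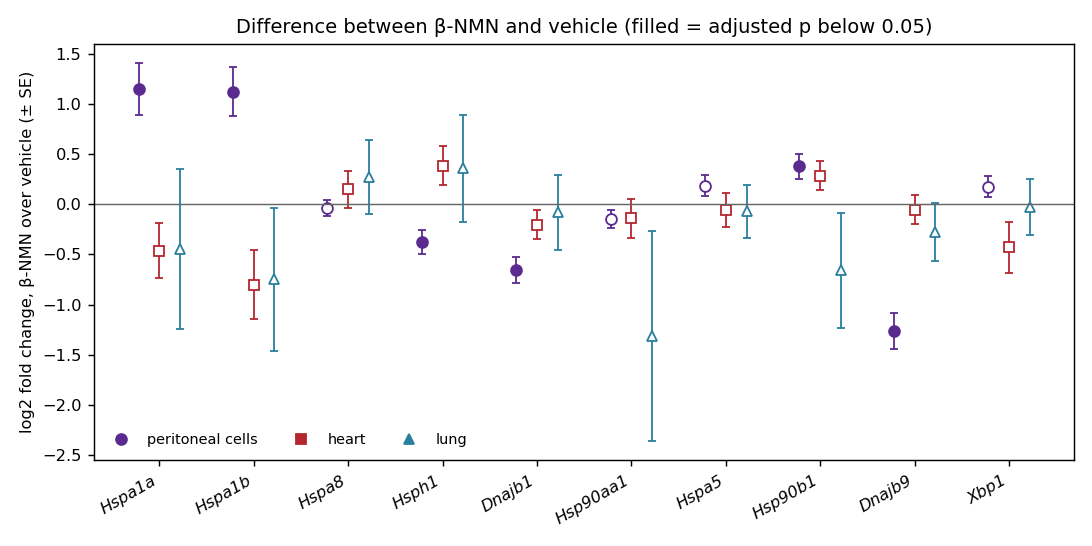
Log2 fold change, β-NMN over vehicle, with its SE (y axis) for the 10 members (x axis) in peritoneal cells, heart and lung, filled where the adjusted p was below 0.05. The 6 filled points are all in peritoneal cells, and the widest error bar is Hsp90aa1 in lung (SE 1.05).

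Whether β-NMN acted differently in lung and heart was tested as a difference of the 2 effects over all 12 organ libraries. Of 18318 genes 0% passed and 4.35% fell under 0.05 before adjustment, and 0 of 10 members passed. The largest member differences, lung minus heart on the log2 scale, were −1.11 for Hsp90aa1 (SE 1.099, edgeR adjusted p = 0.960) and −0.89 for Hsp90b1 (SE 0.59, edgeR adjusted p = 0.960), and both rest on vehicle mouse 2, without which they were 0.61 and 0.036. With the mouse as a block 0 members passed.

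Per length of exon, Hspa8 had the highest median in both organs, at 202 CPM per kilobase in vehicle and 221 in β-NMN hearts, followed without overlap by Hspa5 at 98.9 and 98.2. Hspa1b (2.33 and 1.69) and Hspa1a (1.47 and 1.32) were the lowest in heart, where they overlapped each other. In vehicle lungs Hspa8 (178), Hsp90aa1 (137), Hspa5 (114) and Hsp90b1 (90.9) each overlapped the next. The highest single lung value was Hsp90aa1 at 1211 CPM per kilobase in vehicle lung 2, against at most 255 for Hspa8 in vehicle lungs. In β-NMN lungs Hspa8 (227) lay above Hspa5 (106), which overlapped Hsp90aa1 (105). Hsp90aa1 reached 379.7 CPM per kilobase there, above the highest Hspa8 value of 284.5, so these 2 overlapped as well. Hspa1a was again the lowest (3.62, and 4.00 in vehicle lungs).

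The level in lung was compared with that in the heart of the same mouse, with the mouse as a block, both organs scaled together and all 6 mice in 1 fit. Of the members 5 of 10 passed, against 63.9% of all genes, 34.6% higher in lung and 29.2% lower. Hsp90aa1 was higher in lung in 6 of 6 mice, by 1.96 on the log2 scale (SE 0.43, edgeR adjusted p = 0.00387). The differences by mouse were 1.37, 4.09 and 1.42 in vehicle and 2.88, 0.99 and 1.26 in β-NMN mice. Hspa8 was lower in lung in all 6 mice, with a log2 difference of −0.70 (SE 0.20, edgeR adjusted p = 0.0144), and Hspa5 likewise, with −0.63 (SE 0.16, edgeR adjusted p = 0.00889). Dnajb1 was higher in 5 of 6 mice, by 0.79 (SE 0.21, edgeR adjusted p = 0.0113). Hspa1b was higher in 5 of 6, by 0.78 (SE 0.30, edgeR adjusted p = 0.0445), and was lost when any mouse but vehicle mouse 2 was left out, with no low-count filter (edgeR adjusted p = 0.0649) and with no mouse block (0.0530).

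Hsp90b1 was higher in lung in 6 of 6 mice but did not pass (0.66, SE 0.30, edgeR adjusted p = 0.0808), although it did with no mouse block (edgeR adjusted p = 0.0347). Hsph1 (0.43), Hspa1a (0.35), Xbp1 (0.19) and Dnajb9 (−0.35) did not pass either. Without vehicle mouse 2 the count rose to 9 of 10, all but Hsp90b1, beside 76.01% of all genes in that fit against 63.9% with all mice. The cell types of the organs differ, so a difference per cell and a difference in the mix of cells cannot be told apart.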

How the data were processed

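The authors deposited 2 tables of raw read counts per gene, 1 for peritoneal cells and 1 for organs, with 24 columns in all. Per the submitters' processing notes, reads were aligned with STAR 2.7.3a to mm10 and counted with featureCounts 2.0.0. The treatment of multi-mapping reads and strand was not given in the sources used here. Counts were tested per tissue with edgeR 4.0.16 (R 4.3.3), using filterByExpr, TMM scaling, quasi-likelihood F-tests and Benjamini-Hochberg adjustment over all genes tested (threshold 0.05). CPM used TMM library sizes, and log2 CPM a prior count of 2. Lung was compared with heart with the mouse as a block. Organs were matched by the mouse code in the titles, since 1 β-NMN heart repeats another heart's replicate number. Another label field of the organ libraries names thioglycollate, and their titles, which name CLP, were followed. Single members also had two-sided exact permutation tests (scipy 1.17.1). Alternatives were DESeq2 1.42.0, its size factors, limma-voom with quality weights (limma 3.58.1), robust and newer quasi-likelihood fits, no low-count filter, a replicate block, Hspa1a and Hspa1b summed, and each library left out. Depth subsets and the set without vehicle 3, vehicle 4 and β-NMN 6 were chosen after seeing the data. The fits were tested on simulated data with planted changes larger than those of the members in the main fits. This does not show how well smaller changes are found. Positions came from GENCODE M21 on GRCm38.

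Members and lists were chosen with earlier results of these data known. The text names all members, from each list up to 3 called genes per direction with the smallest adjusted p in peritoneal cells (up to 3 with the smallest p in organs), and the 4 genes most like Hspa1a and Hspa5. Exact 3 against 3 tests cannot reach 0.05. Ranges of library totals are given above. Same-numbered peritoneal libraries did not deviate together (correlations −0.17 to 0.04).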

Additional observations from a re-analysis of the deposited data

Results flagged for a closer look

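Among 30 groups of member values tested for a library far from the rest, 6 stood apart, and chance would give about 1.5 if the groups were independent. They are not, because genes of the same libraries vary together, so the counts do not measure an excess. Hsp90b1 was 265 CPM in β-NMN peritoneal library 5, against 177 to 206 in the other 5. The remaining 5 concern vehicle mouse 2, whose lung minus heart difference on the log2 scale was −1.83 for Hspa1a (−0.02 to 1.01 in the other mice), −0.83 for Hspa1b (0.49 to 1.26), −0.34 for Dnajb1 (0.73 to 1.35), 2.36 for Hsp90b1 (0.07 to 0.76) and −1.07 for Xbp1 (0.04 to 0.57). The lung library of this mouse had the fewest counts of the series and its heart held the atrial genes, and the part of either was not tested.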

How the results depend on the processing

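In peritoneal cells 6 members were called with and without the replicate block, and 4 to 6 under the other alternatives. They were 4 in the shallower and 5 in the deeper libraries, which have fewer samples, and 5 with no filter, where 27.9%, 30.5% and 14.2% of all genes passed against 51.6%. Single-library omissions gave 5 to 6, and 6 to 7 members with an exact permutation p below 0.05. Same-numbered libraries shared only a number (correlations −0.17 to 0.04). In heart and lung 0 members were called under every alternative, but DESeq2 gave no p for Hsp90aa1 in lung. Values that changed sign were Hspa8 in peritoneal cells (0.16 in the deeper libraries, 0.024 without vehicle 3, vehicle 4 and β-NMN 6, −0.056 to 0.038 with 1 library out), in heart Hsp90aa1 (0.11 with limma-voom, −0.30 to 0.050 with 1 library out), Hspa5 (−0.16 to 0.057) and Dnajb9 (−0.19 to 0.043), and in lung Hspa1a (0.079 with the block, −0.94 to 0.39), Hspa1b (−1.22 to 0.018), Dnajb1 (0.020 with the block, −0.37 to 0.32), Hsp90aa1 (0.081 with limma-voom, −2.25 to 0.70), Hspa5 (−0.22 to 0.060), Hsp90b1 (0.10 with limma-voom, −0.94 to 0.27) and Xbp1 (−0.20 to 0.12). None of these passed the test, and the cause was not tested. Lung against heart gave 4 to 9 members with 1 mouse out, 9 without vehicle mouse 2 (76.01% of all genes) and 4 without any other (55.2 to 58.0%), and without the block Hsp90b1 passed in place of Hspa1b. With the longest transcript as length, the highest member exceeded the lowest 61.4-fold in vehicle peritoneal cells (76.1-fold with summed exons), 187-fold and 228-fold in vehicle and β-NMN hearts (138 and 167), and 85.5-fold in β-NMN lungs (62.8). Depth limited Hspa1a most, at 11 reads in vehicle lung 2.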
